A study of Mus musculus with 9 samples.

Results

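Homologous recombination, Fanconi anemia and DNA damage checkpoint genes were followed as a group of 40 genes through RNA sequencing of mouse splenic CD8+ T cells given IL-2 or IL-15. The group was set by name, with earlier results of these data known. It holds Brca1, Bard1, Brip1, Palb2 and Brca2, and the strand exchange genes Rad51ap1, Rad51c, Rad51l1, Xrcc2, Xrcc3, Rad54l and Rad54b. The resection genes are Rad50, Mre11a, Nbn, Rbbp8 and Exo1, and Blm, Eme1, Mus81 and Polq act on joined molecules or ends. The rest are 8 Fanconi genes, 9 checkpoint genes and the mismatch repair genes Msh6 and Pms2. All 40 were found among the 20418 gene symbols of the deposited tables, each read from its most highly counted RefSeq transcript, and all 40 passed the filter on low counts. The cells came from spleens of C57BL/6 females aged 6 weeks, and the labels name no genetic change and no cell sorting. There was 1 untreated library, and the other 8 crossed the cytokine with the dose (1 nM, 500 nM) and the exposure (4 h, 24 h). Every library was made from RNA of 3 identically treated samples pooled before sequencing, so no condition had a replicate, and the untreated library has no stated time in culture. Time in culture and cytokine therefore cannot be told apart in any comparison with the untreated library.

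A DNA double-strand break in a dividing cell can be copied back from the sister chromatid. Nucleases trim the ends, BRCA1 and BRCA2 and their partners prepare the exposed strand for strand exchange, and helicases and nucleases take the joined molecules apart again. Fanconi proteins feed crosslinked forks into the same route. The ATM and ATR kinases hold the cell cycle meanwhile. Many of these genes are transcribed mainly in S and G2 phase, often under E2F factors. IL-2 and IL-15 signal through shared receptor chains and are known to drive CD8+ T cells into division.

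Total counts per library ran from 27158143 to 48799962. The 7 T cell markers, Cd8a and Cd3e among them, summed to between 2701 and 4471 CPM (reads relative to the TMM-scaled library total) in every library, and none of them was at 0 in all. Markers of other spleen cells were present, and all of these lists but the CD4 one were lowest in both 500 nM 24 h libraries. The 7 macrophage and monocyte markers summed to 13.4 and 21.5 CPM there against 55.3 to 551 in the other 7 libraries. The 7 B cell markers summed to 195 and 245 against 288 to 671. The 3 NK cell markers summed to 4.87 and 7.21 against 11.2 to 97.6. The 5 dendritic markers summed to 9.24 and 11.8 CPM there against 29.0 to 112, and the 6 erythroid markers to 4.24 and 6.06 against 26.6 to 92.4. Cd4 with Foxp3 came to 17.2 and 24.3 against 17.9 to 31.1. In none of these lists was a marker at 0 in every library. Their part in the results below was not tested. Fewer cells of a type cannot be told apart from less RNA per cell.

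The start sites of these genes were read for short words, since 22 members rose with dose at 24 h (below). RefSeq windows of GRCm38.p6, from 250 bases before to 50 after a start, were at hand for 32 of the 40 members and for 27025 genes in all. One of the E2F words TTTCCCGC, TTTCGCGC, TTTGCCGC or TTTGGCGC stood on either strand in 8 of 32 members (25%), against 2.6% of all genes with a window and 4.6% of the 9226 that were also tested for expression. CCAAT stood in 19 of 32 members (59.4%) against 41.1% of all genes and 42.3% of tested genes. The CHR word TTTGAA stood in 4 of 32 (12.5%) against 20.2% of all and 14.2% of tested genes. The words were searched on both strands and separately, so they may overlap. Of the 17 windowed members that rose at 24 h with dose, 5 held an E2F word, and of the 15 others 3 did. The median log2 difference with dose at 24 h was 1.14 for the 8 members with an E2F word and 1.66 for those without. A word is a description of letters and not a bound site. The windows of Rad51l1 and Chek1 are shown because these members had the largest rises with dose at 24 h. That of Mus81 is shown because it had the lowest difference with dose, and those of Bard1 and Clspn, chosen after the search, because they had the largest rises among members with an E2F word. Capitals mark the words found. The windows lie at chr12:79297101-79297400 on the plus strand (the second of 2 overlapping windows of Rad51l1, which RefSeq calls Rad51b). Those of Chek1, Mus81 and Bard1 lie on the minus strand at chr9:36726609-36726908, chr19:5488330-5488629 and chr1:71102923-71103222, and that of Clspn at chr4:126556730-126557029 on the plus strand.
Rad51l1: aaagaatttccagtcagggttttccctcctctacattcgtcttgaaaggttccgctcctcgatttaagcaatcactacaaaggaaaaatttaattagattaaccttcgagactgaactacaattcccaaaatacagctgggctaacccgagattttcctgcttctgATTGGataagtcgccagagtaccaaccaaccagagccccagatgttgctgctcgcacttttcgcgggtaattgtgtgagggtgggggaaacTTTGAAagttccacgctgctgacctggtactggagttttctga
Chek1: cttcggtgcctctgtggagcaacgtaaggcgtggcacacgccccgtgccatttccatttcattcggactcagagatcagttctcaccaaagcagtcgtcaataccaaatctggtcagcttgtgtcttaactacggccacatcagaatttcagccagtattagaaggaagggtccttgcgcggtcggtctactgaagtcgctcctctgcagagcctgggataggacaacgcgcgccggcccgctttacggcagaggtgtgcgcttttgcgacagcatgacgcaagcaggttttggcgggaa
Mus81: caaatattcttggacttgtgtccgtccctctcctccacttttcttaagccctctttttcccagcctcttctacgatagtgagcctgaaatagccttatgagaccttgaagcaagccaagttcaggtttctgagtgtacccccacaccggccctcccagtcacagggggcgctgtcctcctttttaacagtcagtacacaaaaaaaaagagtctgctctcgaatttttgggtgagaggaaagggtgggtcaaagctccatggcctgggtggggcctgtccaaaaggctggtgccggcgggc
Bard1: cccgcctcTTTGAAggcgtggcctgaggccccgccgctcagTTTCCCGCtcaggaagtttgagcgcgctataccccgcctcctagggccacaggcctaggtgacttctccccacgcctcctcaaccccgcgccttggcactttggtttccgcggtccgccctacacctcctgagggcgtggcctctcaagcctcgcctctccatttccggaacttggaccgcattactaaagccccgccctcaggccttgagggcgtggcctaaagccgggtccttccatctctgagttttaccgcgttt
Clspn: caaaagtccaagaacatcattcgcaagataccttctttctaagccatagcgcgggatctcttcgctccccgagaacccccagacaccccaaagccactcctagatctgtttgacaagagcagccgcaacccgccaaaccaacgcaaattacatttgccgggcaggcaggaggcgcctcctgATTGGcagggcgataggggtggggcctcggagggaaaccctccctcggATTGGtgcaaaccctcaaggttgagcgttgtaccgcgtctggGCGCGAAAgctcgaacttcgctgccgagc
In Bard1 the E2F word begins at position -209 from the start and a CHR word at -242. In Clspn the E2F word lies on the complement strand, at position 21, with CCAAT complements at -69 and -21. The Rad51l1 window holds a CCAAT complement at -84 and a CHR word at 7, and the Chek1 and Mus81 windows hold none of the words. Only exact words were counted, so a window without a word may hold a close variant. Chek1 holds tttggcgg and Rad51l1 tttcgcgg, which differ from the listed TTTGGCGC and TTTCGCGC in the last base. Such variants were not counted in the other members or over all genes. How common they are elsewhere is therefore not known.

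Levels were compared between members only per exon length, as the authors' deposited RPKM averaged over the 9 libraries. Nbn, the adaptor of the MRE11 nuclease complex, had the highest mean at 23.0 RPKM, followed by Tipin at 13.9, Rad51ap1 at 12.1, Mus81 at 9.92 and Topbp1 at 9.61. Polq, encoding DNA polymerase theta, had the lowest at 0.208 RPKM, below Brip1 at 0.263, Fancm at 0.280 and Brca2 at 0.427.

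Most members were highest in both 500 nM 24 h libraries. At 24 h, 22 of 40 were higher at 500 nM than at 1 nM and 0 were lower, where 15.6% of the 13479 genes tested were called higher and 15.6% lower. The called members included the checkpoint kinase Chek1 and its adaptor Clspn, Brca1 with its partner Bard1, the strand exchange genes Rad51ap1, Rad54l and Rad51l1, and the exonuclease Exo1. The median log2 difference of the members was 1.60, beside -0.04 for all genes tested, and 38 of 40 values were above 0. In 27 of 40 members both 500 nM 24 h libraries lay above all of the other 7, as they did for 18.6% of genes. In 0 members both lay below, against 15.5% of genes. These 27 were all 5 of the BRCA1 and BRCA2 group, all 7 strand exchange genes, 3 of 4 junction genes, 5 of 9 checkpoint genes, 4 of 8 Fanconi genes, 2 of 5 resection genes and 1 of 2 mismatch repair genes. The differences come from the quasi-likelihood test of edgeR, adjusted over all genes by the method of Benjamini and Hochberg. In it the IL-2 and IL-15 libraries of a condition stand in for each other after a common cytokine term. P-values therefore measure only the spread among these 9 libraries. Without the IL-15 500 nM 24 h library fewer members, and fewer of all genes, were called, and the member median was 1.41. With a single dose effect for both times 6 of 40 were called, with a median of 0.85. In that fit 16.1% of all genes were called in either direction, so the members did not exceed the share of all genes.

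**Figure D1:**
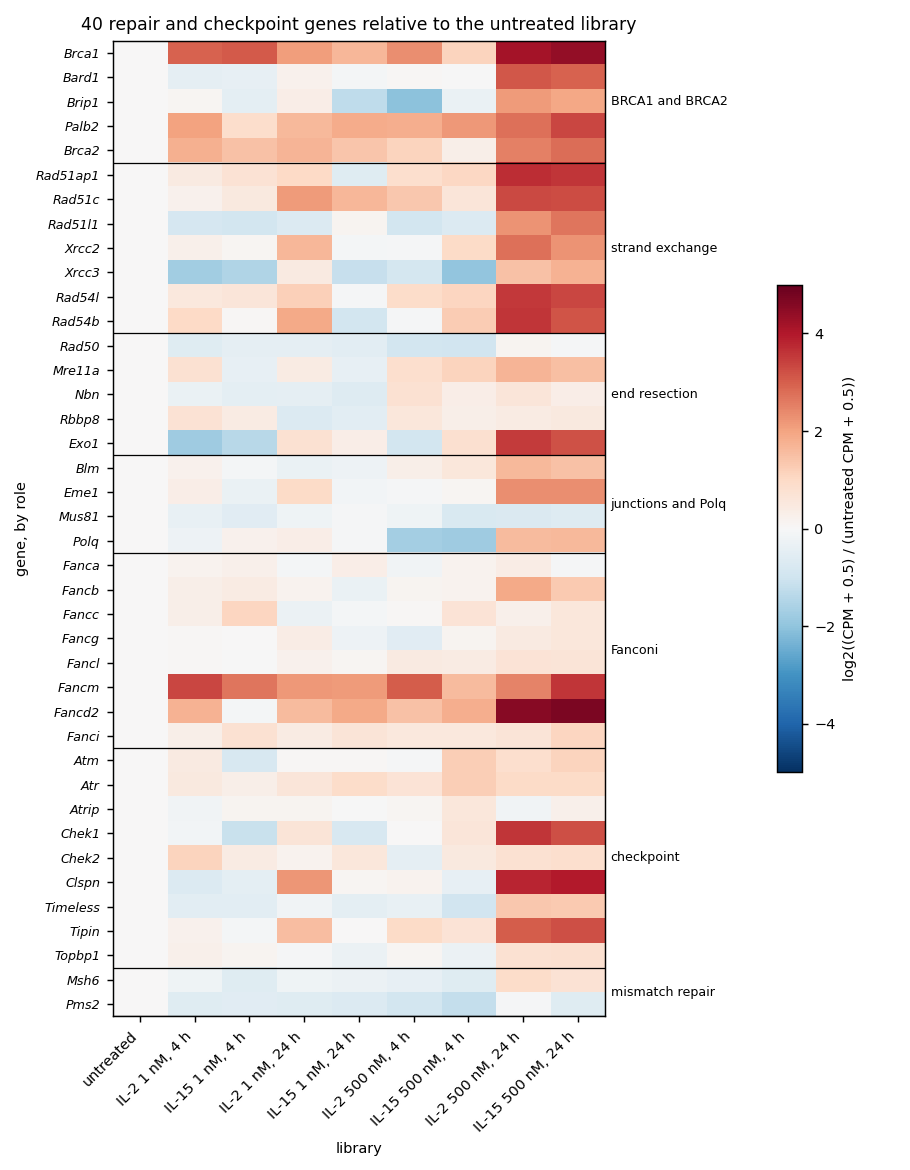
Each row is 1 of the 40 genes, ordered by role, and each column 1 library; color gives the log2 level in CPM plus 0.5, relative to the untreated library. The 2 rightmost columns (500 nM, 24 h) are the reddest for most genes of the BRCA1, BRCA2 and strand exchange groups, while Mus81 is bluer there than in the untreated column (22.9 and 23.8 CPM against 37.5).

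BRCA1 and BRCA2 act in sequence, and PALB2 bridges them. In this group 4 of 5 genes were called higher with dose at 24 h, against 15.6% of all genes tested. In the values that follow, the first of each pair is IL-2 and the second IL-15. Bard1, the obligate partner of BRCA1 in its ubiquitin ligase, stood at 1.91 CPM untreated, 1.24 and 1.32 at 1 nM 4 h and 2.28 and 1.74 at 1 nM 24 h. The 500 nM libraries gave 2.00 and 1.87 at 4 h and 20.3 and 18.04 at 24 h. Both 500 nM 24 h libraries stood far above the other 7, which stayed at or below 2.28 CPM, and the log2 difference between doses at 24 h was 3.26 ± 0.45 (SE; adjusted p = 0.00025). Brca1 itself had a different course, 0.904 CPM untreated, 10.5 and 11.2 at 1 nM 4 h and 5.50 and 3.92 at 1 nM 24 h. With 500 nM, 4 h gave 6.58 and 2.54 and 24 h gave 24.9 and 29.1. It was lowest without cytokine and highest at 500 nM 24 h, with both 1 nM 4 h libraries above both 1 nM 24 h libraries. Its log2 difference between doses was 2.56 ± 0.42 (SE; adjusted p = 0.00067) at 24 h and -1.33 ± 0.41 (SE; adjusted p = 0.062) at 4 h, and the interaction of dose and time, 3.89 ± 0.59 (SE; adjusted p = 0.0035), passed the test.

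Brca1 was also called higher than untreated at 1 nM 4 h, by 3.59 ± 0.61 (SE; adjusted p = 0.0059), and at 500 nM 4 h, by 2.26 ± 0.58 (SE; adjusted p = 0.02). Brip1, a helicase that binds BRCA1, stood at 1.55 CPM untreated, 1.67 and 0.981 at 1 nM 4 h and 2.08 and 0.352 at 1 nM 24 h. The higher dose gave 0 and 1.14 at 4 h and 8.47 and 7.27 at 24 h. It had no count in the IL-2 500 nM 4 h library, where 3 counts would be 0.0909 CPM, and its difference with dose at 24 h of 2.73 ± 1.25 (SE; adjusted p = 0.12) did not pass the test. Both 500 nM 24 h libraries were the highest. Brca2, a mediator of strand exchange, had the smallest difference of the group, with 1.68 CPM untreated, 6.997 and 5.58 at 1 nM 4 h and 6.63 and 5.21 at 1 nM 24 h. For 500 nM the levels were 4.24 and 2.16 at 4 h and 12.1 and 14.7 at 24 h. The high-dose 24 h libraries did not overlap the rest, and the difference was 1.22 ± 0.43 (SE; adjusted p = 0.047). Palb2 was lowest in the untreated library at 1.07 CPM and reached 9.97 and 15.3 CPM at 500 nM 24 h, with 2.38 to 6.62 in the other 6.

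Of the strand exchange genes 4 of 7 were called higher with dose at 24 h, against 15.6% of all genes tested. RAD51AP1 stimulates the strand invasion step, and its gene stood at 7.68 CPM untreated, 10.7 and 13.2 at 1 nM 4 h and 15.7 and 4.90 at 1 nM 24 h. At 500 nM the values were 14.2 and 16.5 at 4 h and 106 and 97.3 at 24 h. All 7 other libraries stayed at or below 16.5 CPM, and the difference with dose at 24 h was 3.37 ± 0.42 (SE; adjusted p = 0.00012) on the log2 scale. Rad51l1, also called Rad51b, had few reads, with 14 counts untreated, 1 and 0 at 1 nM 4 h, 5 and 22 at 1 nM 24 h, 0 and 3 at 500 nM 4 h and 142 and 189 at 500 nM 24 h. Only the last pair exceeded 22 counts, and the fitted difference with dose at 24 h was 4.25 ± 1.33 (SE; adjusted p = 0.029). Between 4 and 24 h at 500 nM the pooled ratio was 108, with a counting interval at 95% confidence of 36.5 to 524.

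Rad54b, a DNA motor protein of strand exchange, stood at 0.484 CPM untreated, 1.45 and 0.528 at 1 nM 4 h and 3.15 and 0.0251 at 1 nM 24 h. The 500 nM libraries gave 0.455 and 1.87 at 4 h and 11.3 and 8.19 at 24 h. It was highest in both 500 nM 24 h libraries, while at 1 nM 24 h it had 159 counts with IL-2 and 1 with IL-15. The difference with dose, 3.10 ± 1.29 (SE; adjusted p = 0.089), did not pass. In the GENCODE annotation of GRCm38, 39.1% of its exon bases are shared with Fsbp on the same strand, so its counts are uncertain. Its relative Rad54l rose from between 2.06 and 5.62 CPM in the other 7 libraries to 31.0 and 26.7, a log2 difference with dose at 24 h of 2.96 ± 0.44 (SE; adjusted p = 0.00039). Rad51c, which partners XRCC3, had the smallest difference of the group at 1.55 ± 0.70 (SE; adjusted p = 0.12), with 0.258 CPM untreated, 0.377 and 0.566 at 1 nM 4 h and 2.85 and 1.89 at 1 nM 24 h. With 500 nM, 4 h gave 1.42 and 0.642 and 24 h gave 6.94 and 6.68. Its high-dose 24 h libraries stood above the rest although the test was not passed. Xrcc3, the partner of RAD51C, was at 16.7 and 20.2 CPM there against 1.08 to 8.11 elsewhere and was called. Xrcc2 was at 13.2 and 8.99 CPM against 1.41 to 5.92 and was not, at 1.68 ± 0.67 (SE; adjusted p = 0.077).

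Of the resection genes, 4 of 5 were called higher with dose at 24 h, against 15.6% of all genes tested. EXO1 is the long-range resection exonuclease, and its gene stood at 5.29 CPM untreated, 1.18 and 1.74 at 1 nM 4 h and 9.38 and 6.82 at 1 nM 24 h. The higher dose gave 2.58 and 9.66 at 4 h and 65.3 and 51.7 at 24 h. The 500 nM 24 h pair was far above the other 7 libraries, with a difference of 2.85 ± 0.48 (SE; adjusted p = 8e-04). Exo1 was also among the few members called at the other time and dose. It was higher at 500 nM than at 1 nM at 4 h by 2.00 ± 0.50 (SE; adjusted p = 0.024), and higher at 24 h than at 4 h at 1 nM by 2.53 ± 0.50 (SE; adjusted p = 0.022). At 500 nM 4 h the IL-15 library had 331 counts and the IL-2 library 85.

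The MRE11, RAD50 and NBN proteins form the complex that senses and trims broken ends, and their genes differed in course. Nbn was at 78.4 CPM untreated, 61.6 and 55.5 at 1 nM 4 h and 57.4 and 49.7 at 1 nM 24 h. For 500 nM the levels were 132 and 99.5 at 4 h and 120.2 and 99.6 at 24 h. The 4 libraries at 500 nM lay above the other 5. The differences with dose of 1.03 ± 0.18 (SE; adjusted p = 0.001) at 24 h and 0.97 ± 0.18 (SE; adjusted p = 0.0043) at 4 h both passed, with an interaction of 0.07 ± 0.25 (SE; adjusted p = 0.95). Mre11a, the nuclease gene, was at 14.6 CPM untreated, 25.2 and 10.9 at 1 nM 4 h and 19.5 and 10.7 at 1 nM 24 h. At 500 nM the values were 26.8 and 32.4 at 4 h and 48.2 and 42.8 at 24 h. Its highest pair was 500 nM 24 h, with 1.65 ± 0.33 (SE; adjusted p = 0.0026), and the IL-15 library was lower than the IL-2 one at both times at 1 nM. Rad50 was at 35.2 CPM untreated, 22.7 and 25.6 at 1 nM 4 h and 25.9 and 24.1 at 1 nM 24 h. The 500 nM libraries gave 18.7 and 17.8 at 4 h and 38.9 and 33.7 at 24 h. The untreated library lay between both 500 nM 24 h libraries, and the difference with dose at 24 h of 0.54 ± 0.23 (SE; adjusted p = 0.098) did not pass. Rad50 was called lower at 500 nM 4 h than untreated, at -0.95 ± 0.27 (SE; adjusted p = 0.033).

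Rbbp8, which encodes the resection factor CtIP, was at 25.6 CPM untreated, 42.9 and 34.1 at 1 nM 4 h and 15.5 and 17.8 at 1 nM 24 h. With 500 nM, 4 h gave 38.6 and 31.4 and 24 h gave 33.8 and 36.6. It was lowest in both 1 nM 24 h libraries and highest in the IL-2 1 nM 4 h library. With dose at 24 h it rose by 1.08 ± 0.24 (SE; adjusted p = 0.0044), and at 1 nM it was called lower at 24 h than at 4 h, at -1.20 ± 0.24 (SE; adjusted p = 0.022).

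Among genes that act on joined DNA molecules, 2 of 4 were called higher with dose at 24 h, against 15.6% of all genes tested. Blm, the helicase gene of Bloom syndrome, was at 4.97 CPM untreated, 5.81 and 4.57 at 1 nM 4 h and 3.88 and 4.07 at 1 nM 24 h. The higher dose gave 6.18 and 7.70 at 4 h and 16.3 and 14.8 at 24 h. Its 500 nM 24 h pair lay above all others, with 1.96 ± 0.38 (SE; adjusted p = 0.0021). Eme1 and Mus81 encode the partners of a structure-specific nuclease. Eme1 was at 7.36 CPM untreated, 9.39 and 5.81 at 1 nM 4 h and 14.9 and 6.56 at 1 nM 24 h. For 500 nM the levels were 7.06 and 8.02 at 4 h and 39.2 and 38.6 at 24 h. It rose by 1.93 ± 0.35 (SE; adjusted p = 0.0015) with dose at 24 h, and 9.04% of its exon bases lie opposite Lrrc59. Mus81 was at 37.5 CPM untreated, 29.1 and 25.4 at 1 nM 4 h and 32.0 and 35.8 at 1 nM 24 h. At 500 nM the values were 31.9 and 21.8 at 4 h and 22.9 and 23.8 at 24 h. Its high-dose 24 h libraries fell within the range of the others, and its difference with dose, -0.54 ± 0.24 (SE; adjusted p = 0.12), was the lowest of the 40 and did not pass.

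Polq was the 1 member called lower with dose at 4 h. Its polymerase joins ends by short homologies, in competition with recombination. Its levels were 1.81 CPM untreated, 1.43 and 2.19 at 1 nM 4 h and 2.41 and 1.71 at 1 nM 24 h. The 500 nM libraries gave 0.212 and 0.175 at 4 h and 6.46 and 6.65 at 24 h. In counts the 500 nM 4 h libraries held 7 and 6 reads, where the other 7 libraries held 53 to 228. Polq was called lower with dose at 4 h, at -3.20 ± 0.75 (SE; adjusted p = 0.017), and against untreated, at -3.20 ± 0.83 (SE; adjusted p = 0.02). With dose at 24 h its difference was 1.67 ± 0.66 (SE; adjusted p = 0.076), which was not called. The interaction of dose and time was 4.87 ± 1.00 (SE; adjusted p = 0.014), the largest called among the members.

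**Figure D2:**
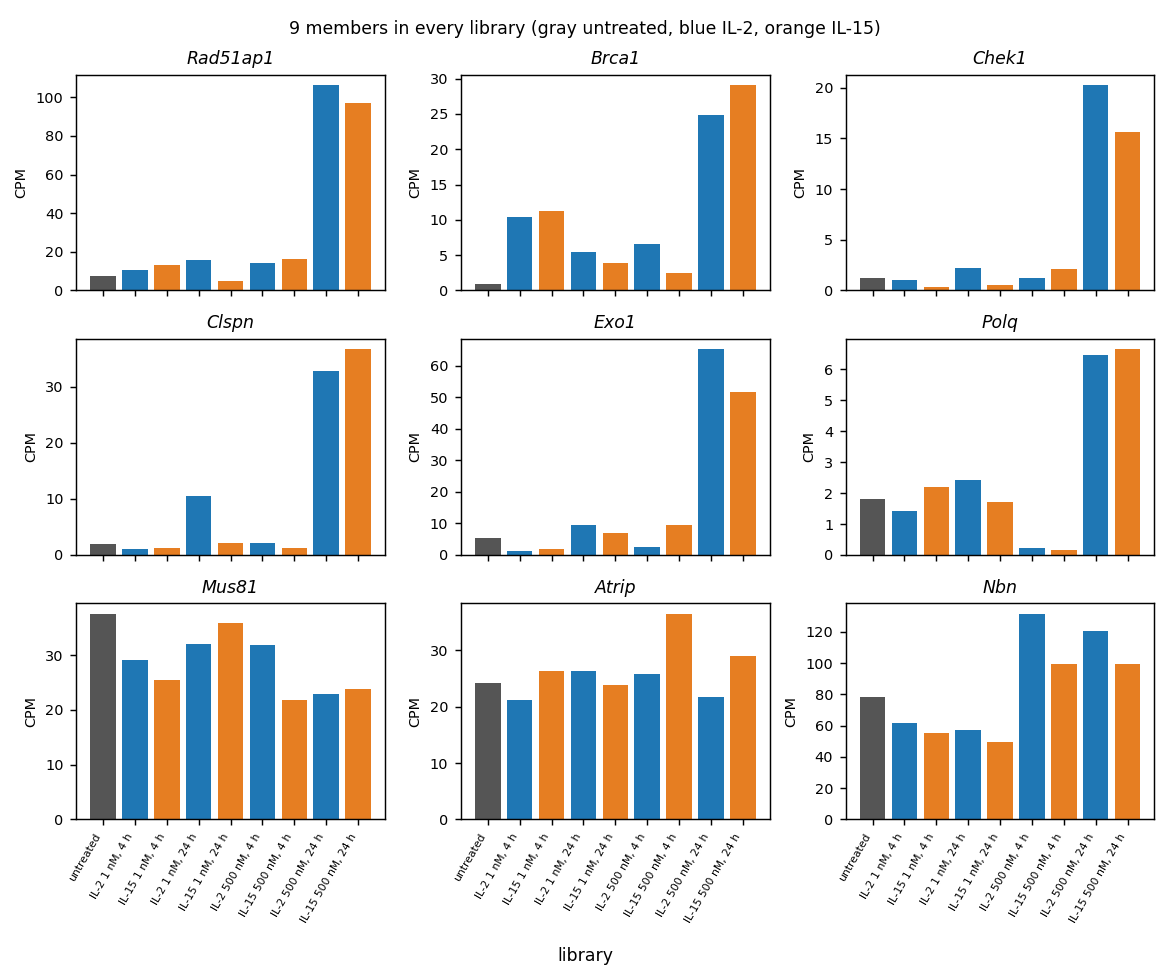
Bars give the level in CPM of 9 members in each of the 9 libraries, from untreated (gray) through IL-2 (blue) and IL-15 (orange), each axis starting at 0. Rad51ap1, Chek1, Clspn and Exo1 peak at 500 nM 24 h, Polq is lowest at 500 nM 4 h, Nbn is high in all 4 libraries at 500 nM, and Mus81 and Atrip show no such peak.

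Of the Fanconi genes 2 of 8 were called higher with dose at 24 h, where 15.6% of all genes tested were. FANCD2 is the protein that the Fanconi core complex marks with ubiquitin, and its gene had 1 count untreated, 47 and 0 at 1 nM 4 h, 56 and 58 at 1 nM 24 h, 32 and 47 at 500 nM 4 h and 419 and 449 at 500 nM 24 h. The last pair exceeded all other libraries, which held at most 58 counts, and the fitted difference with dose at 24 h was 3.28 ± 1.02 (SE; adjusted p = 0.028). Against the untreated library the ratio at 500 nM 24 h was 390, with a counting interval of 69.8 to 15400 that rests on 1 read. Fancb, an X-linked core complex gene, was at 1.84 CPM untreated, 2.40 and 2.64 at 1 nM 4 h and 2.18 and 1.38 at 1 nM 24 h. With 500 nM, 4 h gave 2.06 and 2.13 and 24 h gave 8.24 and 5.37. Its high-dose 24 h pair stood above the rest with 1.93 ± 0.60 (SE; adjusted p = 0.027).

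Fancm, the translocase that brings the core complex to DNA, was at 0.0969 CPM untreated, 5.54 and 3.36 at 1 nM 4 h and 2.18 and 2.09 at 1 nM 24 h. The higher dose gave 4.42 and 1.28 at 4 h and 2.83 and 6.53 at 24 h. The untreated library held 3 counts, so the ratios against it of 47.9 at 1 nM 4 h (interval 16.2 to 233) and 29.2 at 500 nM 4 h (9.83 to 143) are imprecise, though both comparisons passed the test. Between doses at 24 h Fancm did not pass, at 1.20 ± 0.72 (SE; adjusted p = 0.24). Fanca, a scaffold of the core complex, had the smallest difference of the group, 0.08 ± 0.26 (SE; adjusted p = 0.87), with 23.3 CPM untreated, 26.8 and 27.7 at 1 nM 4 h and 21.7 and 29.3 at 1 nM 24 h. For 500 nM the levels were 20.9 and 26.3 at 4 h and 30.6 and 22.6 at 24 h. Of its high-dose 24 h libraries the IL-2 one was the highest of the 9 and the IL-15 one lay inside the range of the others. Fancl encodes the ubiquitin ligase of the complex and Fanci the partner of FANCD2. Fancc, Fancg, Fancl and Fanci had differences of 0.65, 0.45, 0.52 and 0.32 on the log2 scale, none called. Of the exon bases, 17.0% in Fancl lie opposite Vrk2, 13.4% in Fanci opposite Polg and 8.62% in Fanca opposite Zfp276. Reads of the partner genes cannot be told apart if counting ignored strand.

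In the checkpoint group 5 of 9 genes were called higher with dose at 24 h, against 15.6% of all genes tested. These were Chek1, Clspn, Tipin, Timeless and Topbp1. CHEK1 is the kinase that ATR activates when forks stall, and its gene stood at 1.23 CPM untreated, 1.08 and 0.302 at 1 nM 4 h and 2.18 and 0.503 at 1 nM 24 h. At 500 nM the values were 1.24 and 2.13 at 4 h and 20.3 and 15.7 at 24 h. No library outside the 500 nM 24 h pair exceeded 2.18 CPM, and the difference was 3.93 ± 0.70 (SE; adjusted p = 0.0012). Clspn encodes claspin, the adaptor that presents CHEK1 to ATR, and was at 1.91 CPM untreated, 0.996 and 1.21 at 1 nM 4 h and 10.6 and 2.06 at 1 nM 24 h. The 500 nM libraries gave 2.21 and 1.31 at 4 h and 32.9 and 36.7 at 24 h. The pair at 500 nM 24 h was highest and IL-2 at 1 nM 24 h came next, and the difference with dose was 2.70 ± 0.56 (SE; adjusted p = 0.003). Tipin, which with Timeless travels with the fork, was at 7.42 CPM untreated, 8.80 and 6.91 at 1 nM 4 h and 22.5 and 7.57 at 1 nM 24 h. With 500 nM, 4 h gave 14.8 and 12.2 and 24 h gave 64.3 and 72.7. Again IL-2 at 1 nM 24 h stood between the high-dose pair and the rest, with 2.32 ± 0.37 (SE; adjusted p = 0.00055).

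Timeless rose from 20.9 to 41.1 CPM in the other 7 libraries to 106 and 101.4 CPM, by 1.69 ± 0.22 (SE; adjusted p = 0.00016) with dose at 24 h. Topbp1, the activator of ATR, rose from 50.4 to 73.6 CPM elsewhere to 106 and 108.5, by 0.98 ± 0.19 (SE; adjusted p = 0.0021). The sensor kinases did not pass the test. Atrip, the partner of ATR, had the smallest difference of the 9, -0.01 ± 0.25 (SE; adjusted p = 0.99), with 24.2 CPM untreated, 21.3 and 26.4 at 1 nM 4 h and 26.4 and 23.8 at 1 nM 24 h. The higher dose gave 25.9 and 36.5 at 4 h and 21.7 and 29.1 at 24 h. Its high-dose 24 h libraries lay inside the range of the others. Atr stood at 10.5 and 10.7 CPM at 500 nM 24 h against 5.20 to 12.9 elsewhere, with a difference of 0.21 ± 0.35 (SE; adjusted p = 0.7). Atm stood at 25.8 and 30.8 CPM against 7.77 to 33.4, with 0.96 ± 0.45 (SE; adjusted p = 0.13). Chek2, the kinase downstream of ATM, stood at 6.57 and 6.91 against 2.58 to 8.504, with 0.46 ± 0.50 (SE; adjusted p = 0.54).

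Of the mismatch repair genes, Msh6, which recognizes single-base mismatches, was at 52.6 CPM untreated, 45.1 and 34.7 at 1 nM 4 h and 45.9 and 42.7 at 1 nM 24 h. For 500 nM the levels were 39.2 and 34.9 at 4 h and 100.1 and 86.5 at 24 h. It rose by 1.07 ± 0.19 (SE; adjusted p = 0.0014), and the 500 nM 24 h libraries did not overlap the others. Pms2, a mismatch repair nuclease subunit, was at 27.3 CPM untreated, 17.9 and 18.2 at 1 nM 4 h and 17.7 and 16.9 at 1 nM 24 h. At 500 nM the values were 14.2 and 11.6 at 4 h and 26.4 and 17.9 at 24 h. It was not called with dose at 24 h, at 0.34 ± 0.26 (SE; adjusted p = 0.38), and was called lower than untreated at 500 nM 4 h, at -1.09 ± 0.31 (SE; adjusted p = 0.033).

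At 4 h few members were called with dose. Higher at 500 nM were 2 of 40 members, Exo1 and Nbn, and lower was 1, Polq, where 5.42% of genes were called higher and 4.63% lower. The median log2 difference was 0.29 beside -0.02 for all genes. It was 0.21 over the 39 members left when Rad51l1, with 3 or fewer counts on either side, was set aside. It was -0.03 without the IL-15 1 nM 4 h library, 0.02 without IL-15 500 nM 4 h and 0.03 without IL-2 1 nM 4 h, and 0.85 with a single dose effect for both times. An interaction of dose and time was called for 11 of 40 members, all with a more positive log2 difference at 24 h than at 4 h. In the other direction 0 were called. Of all genes, 4.06% were called in the first direction and 4.76% in the other. The 11 were Bard1, Brca1, Brca2, Eme1, Msh6, Polq, Rad51ap1, Rad54l, Rbbp8, Timeless and Topbp1. For Polq the fall at 4 h was larger in size than the rise at 24 h. Without the IL-15 1 nM 4 h library fewer members, and fewer of all genes, were called for dose at 4 h. The count of interactions fell when any treated library but IL-2 1 nM 24 h was left out. The share of all genes called fell in each of these fits too.

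**Figure D3:**
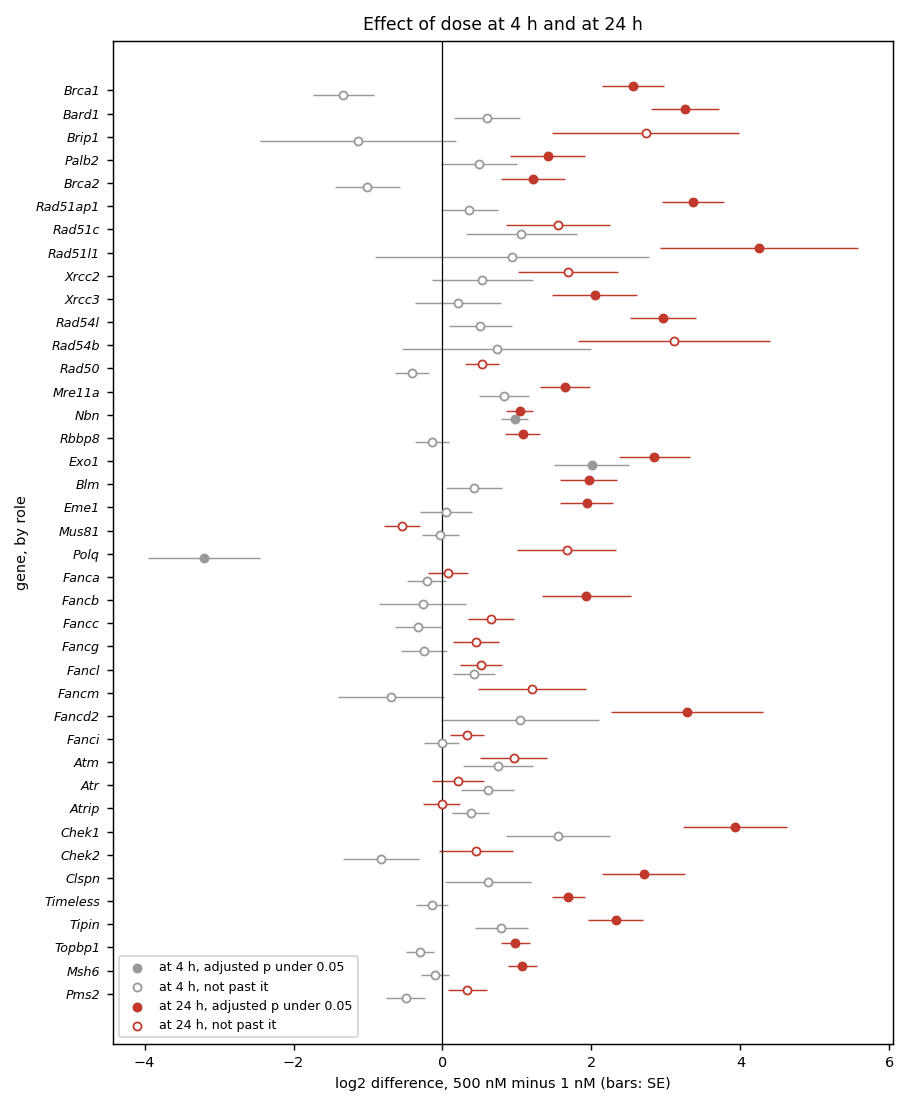
Points give the log2 difference between 500 and 1 nM for each of the 40 genes at 24 h (red) and at 4 h (gray), bars the SE, and filled points adjusted p under 0.05. The 22 filled red points all lie to the right of 0; the 3 filled gray points are Exo1 and Nbn to the right and Polq to the left.

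At 500 nM 21 of 40 members were higher at 24 h than at 4 h and 0 were lower, where 13.3% of genes were called higher and 12.9% lower. The median log2 difference was 1.5 beside -0.04 over all genes. Rad51l1 (above), Polq at 5.06 ± 0.79 (SE; adjusted p = 7e-04) and Clspn at 4.40 ± 0.59 (SE; adjusted p = 0.00027) had the largest values. At 1 nM only Exo1 was called higher at 24 h and only Rbbp8 lower, where 1.51% of genes were higher and 1.38% lower, with a median of 0.09. Without the IL-15 500 nM 24 h library the member median at 500 nM was 1.54. At 1 nM both calls were lost when IL-2 1 nM 4 h, IL-2 1 nM 24 h or IL-15 1 nM 4 h was left out. More members were called without IL-15 1 nM 24 h. The share of all genes called at 1 nM was lower in each of these fits. The median there was -0.1 without IL-2 1 nM 24 h, 0.19 without IL-2 1 nM 4 h and 0.22 without IL-15 1 nM 24 h. A single time effect for both doses gave a median of 0.68.

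Against the untreated library, 21 of 40 were called higher at 500 nM 24 h and 0 lower, where 12.8% of genes were higher and 12.3% lower, with a member median of 1.8 on the log2 scale. Brca1 was higher by 4.92 ± 0.65 (SE; adjusted p = 0.00034), and Clspn by 4.25 ± 0.80 (SE; adjusted p = 0.0024). At 500 nM 4 h, Brca1, Fancm and Palb2 were called higher and Pms2, Polq and Rad50 lower, where 7.92% and 8.47% of genes were. At 1 nM 4 h Brca1 and Fancm were called higher and 0 lower (2.75% and 3.55% of genes), and at 1 nM 24 h 0 members were called either way (0.861% and 0.786% of genes). At that last condition 8 members had an unadjusted p under 0.05 in edgeR. There DESeq2 called 3 (5.85% of genes in either direction) and limma-voom 0 (1.97%). Omitting the IL-15 500 nM 24 h library gave a member median of 1.78 at 500 nM 24 h. The 6 calls at 500 nM 4 h became fewer when any of the 500 nM libraries was left out. The 2 calls at 1 nM 4 h became fewer without IL-2 1 nM 4 h. The share of all genes called fell in each of these fits too. Because the 3 comparisons that contain the 500 nM 24 h libraries share them, their lists are not independent. Of the members, 15 were higher in all 3 and 12 in none. The same overlap was not counted over all genes, so these counts have no share to be read against.

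Differences between the cytokines were sought over all conditions and then in each pair of libraries. Over all conditions 0 of 40 members were called between IL-15 and IL-2, by edgeR, DESeq2 or limma-voom, as were 0% of all genes in either direction in edgeR. At an unadjusted p under 0.05, 171 genes were higher and 191 lower, 1 of them a member. At 1 nM 24 h, where 1 library stands against 1, 10 members were at least 2-fold higher with IL-2 and 1 with IL-15, counting genes with at least 20 reads in the higher library, where 7.99% and 5.78% of genes were. The 10 were Brip1, Chek1, Clspn, Eme1, Rad51ap1, Rad54b, Rad54l, Tipin, Xrcc2 and Xrcc3, and the 1 was Rad51l1. Clspn, for example, had 10.6 CPM with IL-2 and 2.06 with IL-15, Tipin 22.5 and 7.57, and Rad51ap1 15.7 and 4.90. The division markers Top2a and Ccnb1 were also more than 2-fold higher with IL-2 in these 2 libraries, and Mcm2 and Mki67 were higher by less than 2-fold. Top2a was at 24.7 and 7.32 CPM, Ccnb1 at 10.5 and 2.52, Mcm2 at 139 and 93.4 and Mki67 at 7.38 and 6.41. Their part was not tested.

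At 500 nM 24 h 1 member, Fancm, was at least 2-fold higher with IL-15 and 0 with IL-2, where 3.22% and 3% of genes were. The median log2 of IL-15 over IL-2 was 0.00 there and -0.27 at 1 nM 24 h. At 1 nM 4 h 6 members were at least 2-fold higher with IL-2 and 0 with IL-15 (6.98% and 5.01% of genes). The 6 included Fancd2, at least 11.2-fold higher with IL-2 when the 0 with IL-15 is set at the floor of 3 counts. At 500 nM 4 h 6 were higher with IL-15 and 4 with IL-2 (6.46% and 4.99% of genes), with Brip1 at least 12.5-fold higher with IL-15 on the same floor.

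A model with all interactions of factor pairs, which leaves 1 residual degree of freedom, called Rad54b lower with IL-15 at 1 nM 24 h and no other member in any pair. The share of genes called was 0.0148% higher and 0.423% lower at 1 nM 24 h, 0% and 0.0148% at 1 nM 4 h, 0.0816% and 0.0223% at 500 nM 4 h, and 0% and 0% at 500 nM 24 h. In the other pairs 4, 3 and 0 members had an unadjusted p under 0.05 at 1 nM 4 h, 500 nM 4 h and 500 nM 24 h, and DESeq2 and limma-voom called 0 in each. The Rad54b ratio of IL-15 to IL-2 was 0.00799, with a counting interval of 0.000201 to 0.0452. Neither limma-voom nor median-of-ratios scaling gave the call. The difference between the pair at 1 nM 24 h and that at 500 nM 24 h was not tested.

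**Figure D4:**
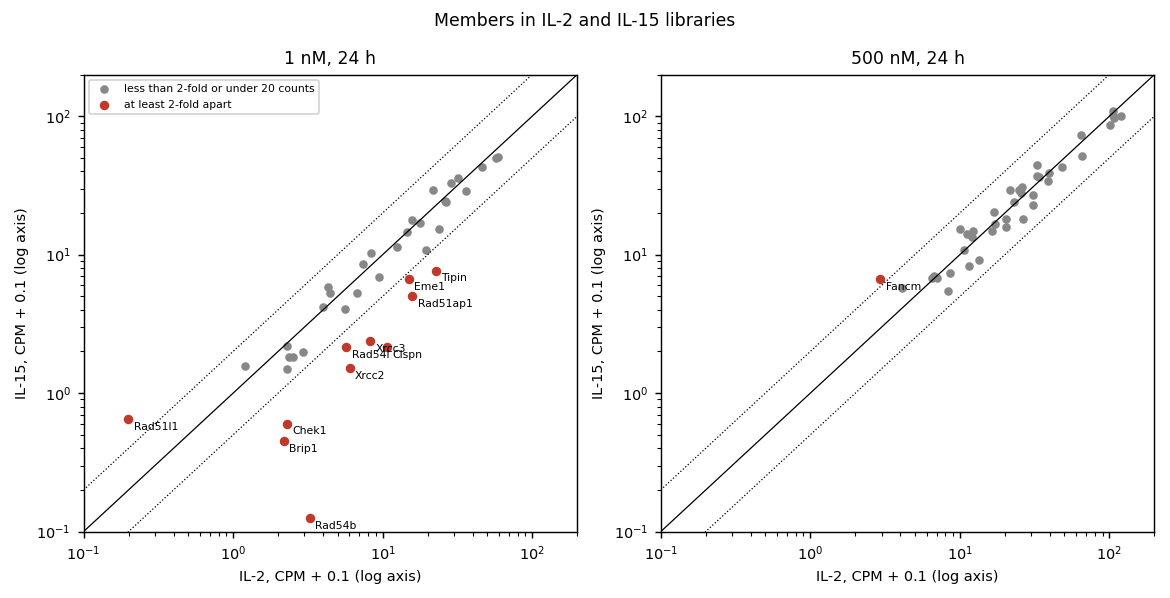
Each point is 1 of the 40 genes, with its level in the IL-2 library on the horizontal and in the IL-15 library on the vertical axis (CPM plus 0.1, both log axes), at 24 h with 1 nM (left) and 500 nM (right); dotted lines mark 2-fold. On the left 10 named genes lie below the lower dotted line and Rad51l1 above the upper, and on the right only Fancm lies outside with at least 20 counts.

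Other genes of the same pathways, and of the programs around them, were followed from lists set beside the members. With dose at 24 h, 15.6% of all genes tested were called higher and 15.6% lower, to be read beside each list count. Of 32 other recombination, Fanconi and checkpoint genes, 13 were higher and 1 lower with dose at 24 h, with a median of 0.67 on the log2 scale. Cdc25c, a phosphatase that opens mitosis, had 4.89 ± 1.37 (SE; adjusted p = 0.017). Its levels were 0.178 (IL-2) and 0.151 CPM (IL-15) at 1 nM 24 h and 5.10 and 4.57 at 500 nM 24 h. The size of its rise is therefore imprecise. Of 33 DNA replication genes 32 were higher and 0 lower, with a median of 2.09, led by Rrm2 at 3.42 ± 0.44 (SE; adjusted p = 0.00016) and Mcm10 at 3.41 ± 0.69 (SE; adjusted p = 0.0026). All 20 mitosis genes were higher, with a median of 2.94, led by Bub1 at 3.43 ± 0.49 (SE; adjusted p = 0.00029) and Top2a at 3.28 ± 0.38 (SE; adjusted p = 8.5e-05). Of 11 end joining genes 2 were higher, Rif1 at 1.56 ± 0.42 (SE; adjusted p = 0.014) and Xrcc5 at 0.91 ± 0.19 (SE; adjusted p = 0.0035), and 0 lower, with a median of 0.03. Of 14 other mismatch and base excision repair genes 5 were higher and 0 lower, with a median of 0.59, led by Neil3 at 2.43 ± 0.65 (SE; adjusted p = 0.013) and Lig1 at 2.33 ± 0.21 (SE; adjusted p = 2.2e-05). Of 17 p53 targets 6 were higher and 5 lower, with a median of -0.04, and the largest changes were falls in Btg2 at -2.67 ± 0.21 (SE; adjusted p = 8.2e-06) and Gadd45a at -2.59 ± 0.36 (SE; adjusted p = 0.00026).

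Division markers followed the same libraries. Mki67 stood at 55.1 and 62.1 CPM at 500 nM 24 h against 2.91 to 8.37 elsewhere, Top2a at 139 and 148 against 7.32 to 24.7, and Ccnb1 at 31.0 and 33.4 against 1.06 to 10.5. Relative to untreated, the median of the members on the log2 scale was 1.65 and 1.57 in the IL-2 and IL-15 libraries at 500 nM 24 h and between -0.08 and 0.44 in the other 6 treated libraries. The share of cells in cycle was not measured here, and its part in the members' values was not tested.

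**Figure D5:**
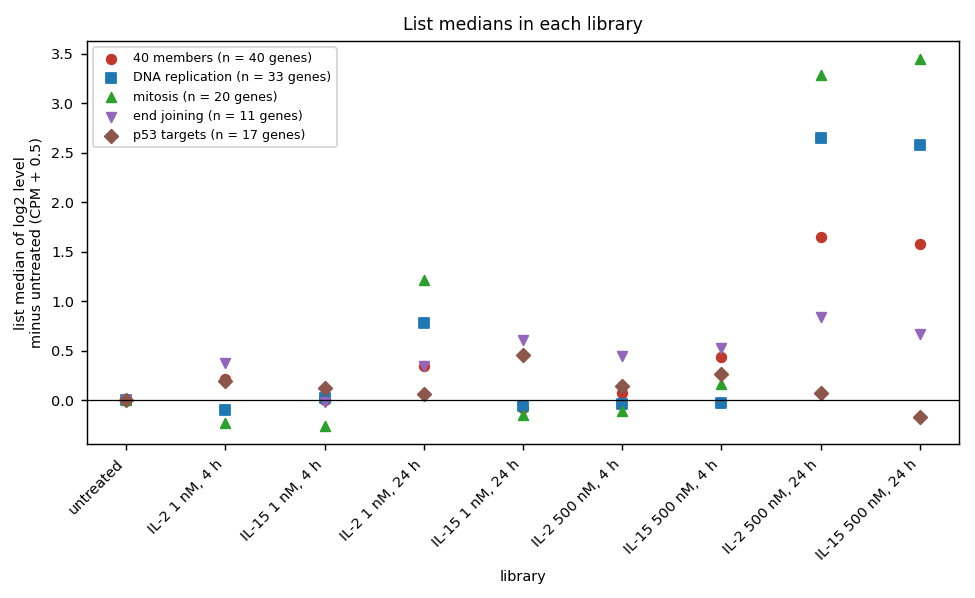
Points give, for each library, the median over a gene list of the log2 level in CPM plus 0.5 relative to untreated, for the 40 members, DNA replication, mitosis, end joining and p53 target lists. At 500 nM 24 h the mitosis and replication medians are highest, the members lie at 1.65 and 1.57, and end joining and p53 targets lie below them; at 1 nM 24 h replication and mitosis lie at 0.78 and 1.22 with IL-2 and at -0.06 and -0.15 with IL-15.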

How the data were processed

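RNA of mouse CD8+ T cells was sequenced in 9 libraries, each with several rounds of PCR per the labels' protocols. The submitters' processing notes name CASAVA 1.8, Bowtie 0.12.4 and the build mm8. How strand and multi-mapping reads were handled is not given in the sources used here, as far as labels and headers go. The authors deposited raw counts for 24373 RefSeq transcripts and, per the file headers, RPKM values, which were used only to compare levels between genes. For the 8 members with more than 1 transcript, the one with the highest mean count was used.

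Symbols were filtered by filterByExpr (minimum count 10, total 15), leaving 13479, and scaled by TMM. edgeR 4.0.16 in R 4.3.3 fitted the quasi-likelihood model on 5 dose and time conditions plus cytokine over 9 libraries (3 residual degrees of freedom), with Benjamini-Hochberg adjustment over all genes and a threshold of 0.05. Pairs of single libraries were tested with all 3 interactions of factor pairs (1 residual degree of freedom) and described by a 2-fold rule with an offset of 1 count. Ratios with 1 to 3 counts on a side have exact binomial intervals at 95% confidence, and a 0 was set at a floor of 3 counts; both cover counting error only, since PCR copies are not independent molecules. Alternatives were DESeq2 1.42.0, limma-voom (limma 3.58.1), median-of-ratios scaling, no filter, a mean of at least 50 counts, main effects only, all 3 pair interactions and leaving out each library. The fits were also run on simulated counts. These held no interaction of cytokine with dose or time, so they cannot check whether IL-2 and IL-15 libraries can stand in for each other.

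The members and lists were chosen with earlier results of these data known. In each role group, library values were given for the 3 members with the largest absolute difference with dose at 24 h, the smallest, and any called against the general direction; from other lists up to 2 genes were named by size. Some genes of those lists are not reported here by name. Promoter windows came from RefSeq (GRCm38.p6, 32 of 40 members matched) and exon overlaps from GENCODE vM21.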

Additional observations from a re-analysis of the deposited data

Results flagged for a closer look

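A test of the difference itself picked out 11 members whose log2 difference between 500 and 1 nM was more positive at 24 h than at 4 h. Among them were Polq at 4.87 ± 1.00 and Brca1 at 3.89 ± 0.59 (log2, SE, edgeR). Both values include a fall with dose at 4 h, called for Polq only. The rise of Polq at 24 h was not called and was smaller in size than its fall. A test between single libraries picked out 1 member, Rad54b, with 159 counts in the IL-2 library and 1 in the IL-15 library at 1 nM 24 h. Samples far from their group could not be sought, since each condition has 1 library.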

How the results depend on the processing

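No called member changed direction under any of the alternatives run. Percentages in this paragraph are shares of all genes called in either direction. Main effects only gives 1 dose effect for both times and 1 time effect for both doses. With it 6 members were called for dose (16.1%) and 6 for time (5.3%). Against untreated 3 were called at 500 nM 24 h (5.45%), 0 at 500 nM 4 h (6.81%) and 0 at 1 nM 4 h (0.549%). With limma-voom 1 was called for dose at 4 h (9.21%), 1 for time at 1 nM (2.96%) and 7 for the interaction (7.29%). Against untreated it called 2 at 500 nM 4 h (15.3%) and 0 at 1 nM 4 h (5.65%). Between cytokines at 1 nM 24 h it called 0 (0.26%), and median-of-ratios scaling also gave 0 (0.141%). DESeq2 called 4 at 1 nM 4 h (11.1%) and 3 at 1 nM 24 h (5.85%) against untreated. At 1 nM 24 h no filter gave 1 (2.08%) and all 3 interactions gave 1 (4.07%). The latter gave 5 for dose at 4 h (12.9%). The cause of these shifts was not tested.

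Leaving out each library in turn gave 14 to 24 calls for dose at 24 h, 1 to 4 for dose at 4 h, 12 to 25 for time at 500 nM, 0 to 4 for time at 1 nM and 3 to 11 for the interaction. Against untreated it gave 1 to 3 calls at 1 nM 4 h, 0 to 1 at 1 nM 24 h (1 without IL-2 1 nM 4 h, IL-2 500 nM 4 h, IL-15 1 nM 4 h, IL-15 1 nM 24 h or IL-15 500 nM 4 h), 2 to 7 at 500 nM 4 h and 13 to 22 at 500 nM 24 h. Where leaving a library out left 1 in a condition, that library was assumed to vary like the others. Pairs of single libraries and comparisons with the untreated library could not be refitted without a library they consist of. Calls made under every setting were Bard1, Chek1, Exo1, Mre11a, Nbn and Tipin for dose at 24 h, Clspn, Exo1, Tipin and Xrcc3 for time at 500 nM, Brca1 and Timeless for the interaction, and Exo1 and Palb2 for 500 nM 24 h against untreated. The settings include main effects only, where dose and time effects are shared and dose at 24 h is not tested by itself. A member that rose only at 24 h could be left off these lists for that reason. No paired analysis was possible because every condition has 1 library and the labels give no shared replicate numbers. Depth limits Rad51l1, Fancd2, Fancm, Rad54b, Brip1 and Polq, each of which held 7 or fewer counts in at least 1 library.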
